A study of Mus musculus with 12 samples.

Results

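The comparison described here is the last step of a mifepristone time course in a mouse mammary carcinoma: 2 arrays from tumours at 48 h of mifepristone against 2 arrays from tumours at 24 h, which are 4 of the 12 arrays of the study. The 4 arrays were chosen by their source names, and all 18193 genes with a probe set of 1 annotated symbol were tested. The tumour is C4-HD, a progestin-dependent mammary carcinoma carried in BALB/c mice. The animals of all groups had been given MPA (medroxyprogesterone acetate, a synthetic progestin). In the 24 h and 48 h groups the MPA pellet was taken out when the tumour had an area of 50 mm2 and mifepristone (MFP) was given under the skin at 10 mg/kg/day, so that both groups shared MPA withdrawal, the drug and its dose and differed in the time of exposure. The other 8 arrays, 2 in each group, came from tumours with MPA, from saline-treated tumours with the source name no MPA (48 h), and from tumours at 6 h and 12 h of MFP. The protocol calls saline-treated tumours that still had MPA the control, so the state of the no MPA group is ambiguous. The 6 h group is absent from the text of the series, which lists the later times only and has tumours removed after 2 days; the times used are those of the sample labels. The sources used here give no age for the mice. No label ties the 2 arrays of a group to different animals, although the series text describes independent replicates, so the p-values cover the spread among these arrays, which may be technical.

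Mifepristone is an antagonist of the progesterone and glucocorticoid receptors. In progestin-dependent mammary tumours, progestin signalling drives division of the epithelial cells, in part through paracrine ligands such as the RANK ligand (Tnfsf11) and Wnt4, and its loss is known to be followed by arrest, cell death and remodelling of the stroma, in which fibroblasts lay down and cleave matrix and macrophages and neutrophils remove dead cells. A time step within the treatment compares tumours at an earlier and a later time of MPA withdrawal and mifepristone.

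For each probe set the values are log2 ratios to its MPA mean (2 arrays), so that 0 is the MPA level and a difference of 1 is a 2-fold change. Each ± after a difference is its standard error in a limma model of all 6 groups, with n = 2 arrays per group, and a gene is said to have risen or fallen where the Benjamini-Hochberg adjusted p over all genes was below 0.05. Because the values are ratios, they give no level over background, and the presence of mammary epithelial markers in the tumours could not be checked. Precision is limited by the small number of arrays. Array medians over all probe sets lay between -0.11 and 0.01. The RNA came from formalin-fixed tissue. The difference between 3' and 5' control probe sets of Actb was 0.35 and 0.50 in the 24 h arrays against 0.47 and 0.59 in the 48 h arrays. For Gapdh it was 0.42 and 0.55 against 0.48 and 0.37; the groups overlapped in each.

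Transcripts of other organs stood out in the 4 arrays and are set apart before the rest. The list of 180 liver genes had medians of 2.34 and 3.14 at 24 h and of -0.20 and -0.29 at 48 h, where the other 8 arrays lay between -0.52 and 0.38. Of these genes 118 fell and 0 rose in the step. Cyp2e1, a cytochrome P450 of hepatocytes, stood at 4.37 and 4.62 at 24 h and at -1.08 and -1.44 at 48 h, a difference of -5.76 ± 1.05 (adjusted p = 0.0177). Cps1, the entry enzyme of the urea cycle, differed by -5.59 ± 1.07 (adjusted p = 0.023) and Cyp3a11 by -5.47 ± 1.0 (adjusted p = 0.0177). These 3 calls were lost in fits that left out single arrays, with adjusted p of up to 0.0930 for Cyp2e1 without an array of the step, up to 0.106 for Cps1 and up to 0.113 for Cyp3a11, and the difference nearest to 0 in any of them was -4.34, for Cyp3a11.

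The exocrine pancreas genes overlapped between the groups. Its 49 genes had medians of 0.32 and 4.74 at 24 h and of 2.87 and 3.10 at 48 h, and the 6 h arrays were also high, at 3.96 and 1.97. The secreted lectin Reg3b was at -0.12 in replicate 1 and 8.64 in replicate 2 at 24 h, and at 7.29 and 6.95 at 48 h (2.86 ± 1.97, adjusted p = 0.575), and turned to -1.52 without replicate 1 of 24 h. Reg2, of the same family, was at 1.5 and 8.70 at 24 h and at 6.72 and 7.36 at 48 h, and turned to -1.66 without that array, while without replicate 2 of 24 h its difference was 5.54. The 1 member of this list that fell, Gnmt, is also a liver gene (-3.99 ± 0.54, adjusted p = 0.00362). Of 19 islet genes and 104 skeletal muscle genes, 0 passed in either direction. Gcg, which encodes glucagon, was at 4.99 in replicate 2 of 24 h and between -0.19 and 0.24 in the other 11 arrays. The muscle genes Trdn, Pygm and Myot were at 5.23, 4.31 and 5.45 in replicate 1 of 48 h, and at -0.25, 0.39 and -0.53 in replicate 2, so that a single array carried them. Replicate 2 of 24 h and replicate 1 of 48 h were also the high arrays for 13 B and plasma cell markers (medians of 2.31 and 1.60, against -0.20 and -0.39 in their partners) and 6 red blood cell genes (2.09 and 1.63, against -0.13 and -0.07), of which 0 passed in the step. In such bulk samples, fewer cells of a type and less RNA per cell cannot be told apart.

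**Figure D1:**
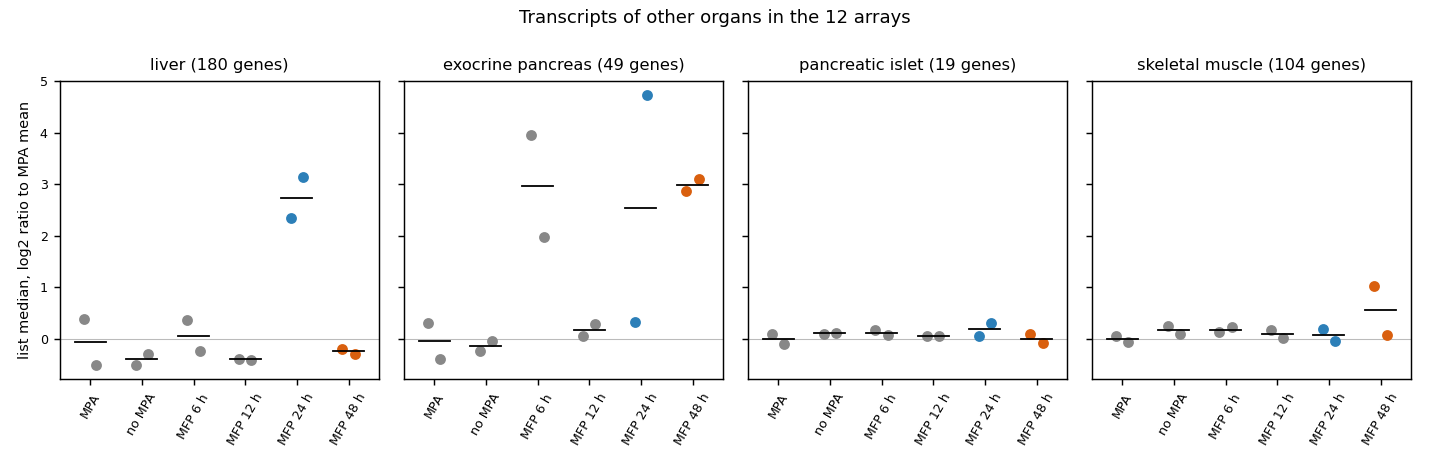
Median log2 ratio to the MPA mean of 4 organ gene lists in each of the 12 arrays; each point is an array and each bar the mean of a group's 2 arrays. The liver median is 2.34 and 3.14 in the 24 h arrays and at most 0.38 in the others, the pancreas median is high in 5 arrays at 6 h, 24 h and 48 h, and the muscle median is high in 1 array at 48 h.

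Over all genes, 427 passed the test in the step, which is 2.35% of the 18193 tested: 113 rose (0.621%) and 314 fell (1.73%). At an unadjusted p below 0.05, 1294 genes were higher at 48 h (7.11%) and 1265 lower (6.95%). The median difference over all genes was 0.04. With the 350 tested genes of the 4 organ lists set apart, 17843 genes remained, of which 113 rose (0.633%) and 196 fell (1.1%), so that all of the rises and 196 of the falls lay outside these lists. Between 24 h and 48 h, both 48 h arrays were above both 24 h arrays for 23.8% of all genes and below them for 17.8%. An exact permutation test of a single gene, with 2 arrays against 2, cannot give a two-sided p below 0.333, so no gene could pass by such a test. The limma calls rest on a spread shared over genes and groups. The counts changed with single arrays: outside the organ lists, 49 genes rose without replicate 1 of 24 h, 68 without replicate 2 of 24 h, 59 without replicate 1 of 48 h and 74 without replicate 2 of 48 h, and 193 rose in each fit without 1 of the MPA arrays, while 123 or 124 fell without replicate 2 of 24 h or either array of 48 h. With both replicate 2 of 24 h and replicate 1 of 48 h left out, a choice made after seeing the data, 23 rose and 51 fell. A fit of the 4 arrays alone gave 19 rises and 69 falls.

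The genes called outside the organ lists were sorted by where their 24 h and 48 h arrays stood among the other arrays, a sorting made after the values were seen, which describes the calls and tests nothing. Of the 113 risen genes, 87 had both 48 h arrays above all 10 others without a low at 24 h, and their median was 0.01 and 0.04 at 24 h and 1.63 and 1.61 at 48 h. Another 20 had both 24 h arrays below all 8 arrays outside the step, with medians of -1.62 and -1.53 at 24 h and of -0.17 and -0.49 at 48 h, and 6 did neither. Of the 196 fallen genes, 154 had both 24 h arrays above all 8 arrays outside the step, and 42 did not. Over all genes, both 48 h arrays lay above all 10 others for 7.62%, both 24 h arrays below the 8 others for 7.86%, and both 24 h arrays above them for 7.62%.

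**Figure D2:**
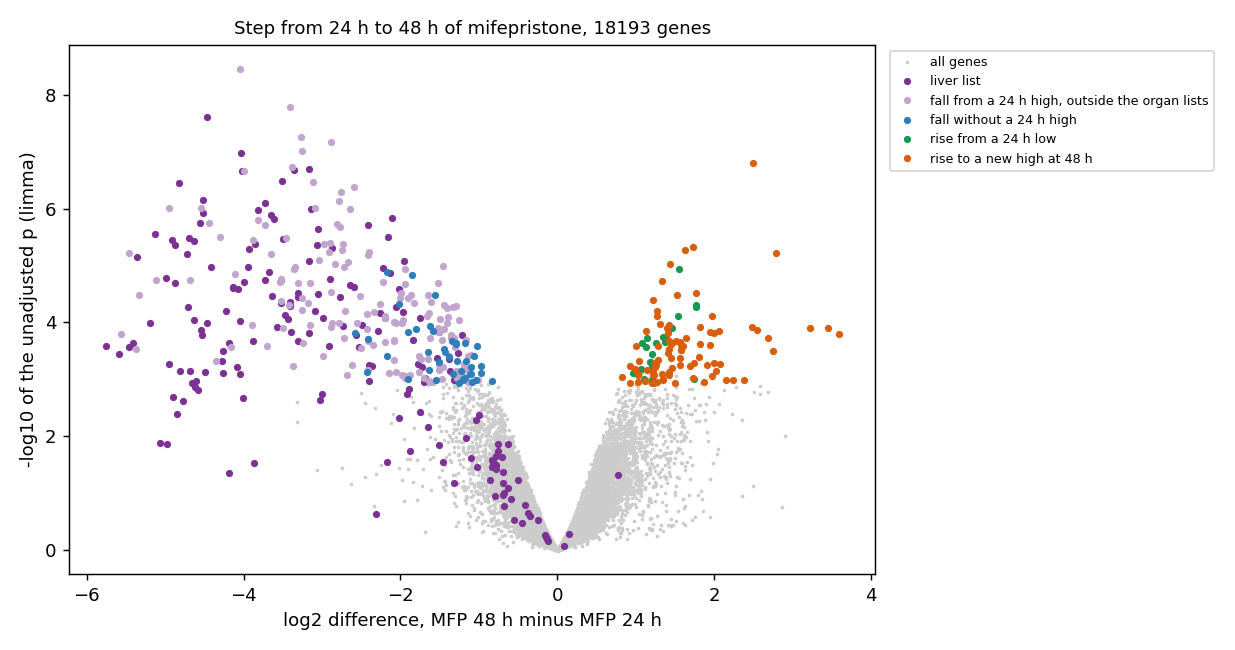
Log2 difference between 48 h and 24 h of MFP for each gene (horizontal) against -log10 of limma's unadjusted p (vertical); grey points are all 18193 genes, purple points the liver list, and the other colours the called genes outside the organ lists by course. The left arm consists mostly of liver genes and of genes that fell from a 24 h high, and the right arm of genes that rose to a new high at 48 h.

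**Figure D3:**
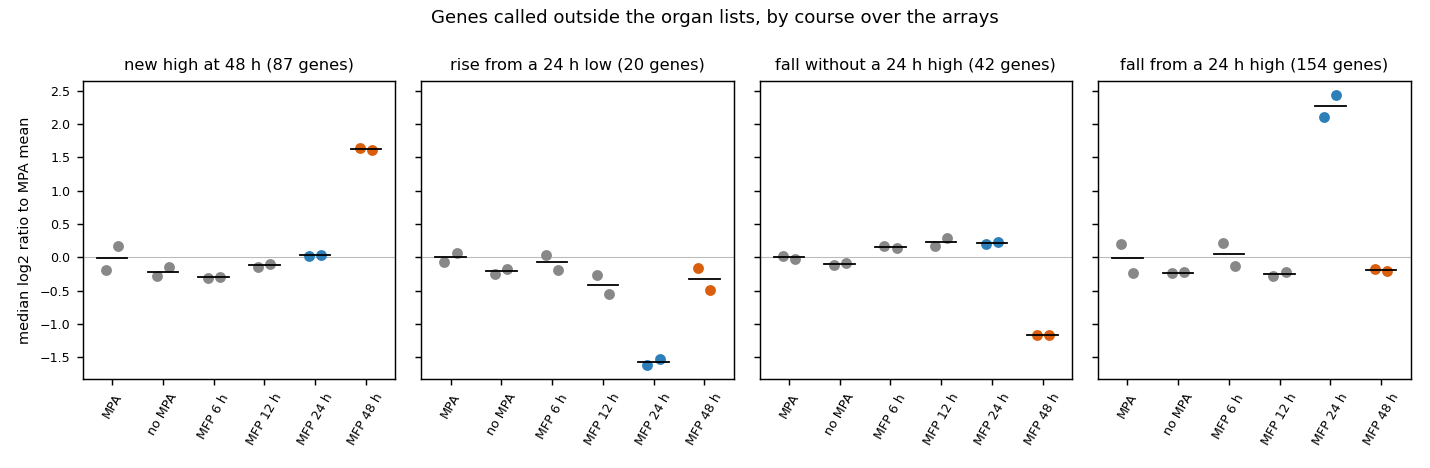
Median log2 ratio to the MPA mean in each array for the 4 courses of called genes outside the organ lists; points are arrays and bars group means. The 87 genes of the new high are at 1.63 and 1.61 at 48 h and near 0 in the other arrays, the 20 genes of the 24 h low return to -0.17 and -0.49, and the 154 genes of the 24 h high return to about the level of the 8 arrays outside the step.

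Of the 8 largest rises, Sfrp2 and Efemp1 encode secreted proteins of the matrix. Sfrp2, a secreted Wnt modulator, was at -1.63 and -0.44 at 24 h and at 2.46 and 2.65 at 48 h, above all other arrays, the highest of which was at 0.70. It rose by 3.59 ± 0.62 (adjusted p = 0.0131). Its relative Sfrp1, named after its values were seen, was at 0.03 and 0.50 at 24 h and at 2.78 and 2.72 at 48 h (2.49 ± 0.41, adjusted p = 0.0114). Efemp1, an elastic fibre protein of the fibulin family, was at -1.50 and 0.52 at 24 h and at 3.09 and 2.83 at 48 h (3.45 ± 0.58, adjusted p = 0.0116). The 24 h arrays of both Sfrp2 and Efemp1 lay apart from each other by more than 1, yet below both 48 h arrays. Pdgfra, the PDGF receptor that marks fibroblasts, went from -0.35 and 0.00 to 1.67 and 1.26 (1.64 ± 0.29, adjusted p = 0.0149), with the same direction in its 3 probe sets.

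Among the 27 tested fibroblast and collagen matrix genes Pdgfra was the 1 called, and 0 fell. The list's median difference was 0.74, and its medians were 0.87 and 0.71 at 24 h, then 1.63 and 1.81 at 48 h. At 12 h they had been -0.19 and -0.11, so the list was already higher at 24 h than at 12 h. The differences of its members ran from -0.12 for Tnc (tenascin C) to 1.65 for Col3a1 (a fibrillar collagen). Both 48 h arrays were above both 24 h arrays for 23.8% of all genes and for 24 of the 27 in this list. In these genes the 2 MPA arrays differed as well, with list medians of -0.91 and 0.55, as they did for macrophage markers (-0.79 and 0.51), metalloproteinases (-0.65 and 0.45) and chemokines (-0.70 and 0.47). Further genes of mesenchymal cells, named after their values were seen, were among the 87: the transcription factors Twist1 (1.46 ± 0.28, adjusted p = 0.0259), Meox1 (1.42 ± 0.25, adjusted p = 0.0158) and Meox2 (1.61 ± 0.29, adjusted p = 0.0176), and the secreted protein Islr (1.39 ± 0.23, adjusted p = 0.0117). Of 19 tested metalloproteinases and inhibitors 2 rose, the neutrophil collagenase Mmp8 and the stromelysin Mmp3, and 0 fell, with a median difference of 1.18. Mmp3 was at 0.01 and -0.56 at 24 h and at 1.10 and 1.84 at 48 h (1.74 ± 0.35, adjusted p = 0.0295).

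Lgr6, a receptor for R-spondins that marks stem cells of some epithelia, and Hnmt, the enzyme that methylates histamine, had the smallest adjusted p of the named rises. Hnmt was between -0.20 and 0.35 in the other 10 arrays and at 2.38 and 2.58 at 48 h (2.50 ± 0.20, adjusted p = 0.000306). Lgr6 was at 0.12 and -0.54 at 24 h and at 2.26 and 2.91 at 48 h (2.79 ± 0.33, adjusted p = 0.00175). Each of these 2 genes passed in all 12 fits that left out 1 array, with adjusted p of at most 0.00321 for Hnmt and 0.0167 for Lgr6. The other 6 of the 8 largest rises each lost the call in at least 1 such fit, with values that kept their direction. Without replicate 1 of 24 h Sfrp2 differed by 2.99 (adjusted p = 0.0727), and the highest adjusted p over these fits were 0.0722 for Efemp1 without replicate 1 of 48 h, 0.0634 for Ccl6, 0.109 for Ptx3, 0.0778 for F13a1 and 0.0786 for Adgra1.

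Ccl6, F13a1 and Ptx3, also among the 8 largest rises, are genes that myeloid cells express. Ccl6, a chemokine of macrophages and neutrophils, was at -1.56 and -0.25 at 24 h and at 2.29 and 2.35 at 48 h (3.23 ± 0.54, adjusted p = 0.0116). Its other arrays reached down to -3.64 in the no MPA group and up to 0.50 in MPA, so that the 48 h arrays were the highest. F13a1, the A chain of coagulation factor XIII that macrophages also make, went from -1.06 and -0.42 to 1.93 and 1.94 (2.68 ± 0.47, adjusted p = 0.0148). Ptx3, a secreted pattern receptor of innate immunity, went from -1.19 and -1.30 to 1.62 and 1.39 (2.75 ± 0.52, adjusted p = 0.0205).

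Itgam, the integrin chain of neutrophils and macrophages, rose from 0.45 and 0.97 to 2.46 and 2.60 (1.82 ± 0.30, adjusted p = 0.0115). It was the 1 of 23 tested macrophage markers that passed, and 0 fell. That list had a median difference of 1.03, medians of 0.55 and 1.0 at 24 h and of 1.87 and 1.78 at 48 h, and members from -0.60 for Marco to 2.59 for Mrc1, both scavenging receptors. Of 16 neutrophil markers 2 rose and 0 fell, with a median difference of 1.17. Mmp8 was at 1.47 and 0.70 at 24 h and at 2.86 in both 48 h arrays (1.77 ± 0.25, adjusted p = 0.00498), and passed in all 12 fits that left out 1 array. Cxcr2, the receptor for neutrophil chemokines, was at 0.09 and 0.33 at 24 h and at 1.63 and 2.59 at 48 h (1.91 ± 0.39, adjusted p = 0.031). The neutrophil list as a whole was uneven at 48 h, with a median of 2.66 in replicate 1 and 0.90 in replicate 2.

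Of 25 chemokines and their receptors 4 rose and 0 fell, with a median difference of 0.68. Beside Ccl6 these were Ccl9 (1.99 ± 0.34, adjusted p = 0.0128), the monocyte attractant Ccl8 (2.23 ± 0.49, adjusted p = 0.0462) and Ccr2, the receptor of inflammatory monocytes (1.70 ± 0.35, adjusted p = 0.0323). Ccr2 was lower than in MPA in both 24 h arrays, at -0.53 and -0.76, and higher at 48 h, at 1.51 and 0.59. The calls of Itgam, Cxcr2, Ccl9 and Ccr2 were lost in some of the fits that left out 1 array, with adjusted p of up to 0.0664, 0.164, 0.0705 and 0.164. T and NK cell markers (18 genes), B and plasma cell markers (13) and class II antigen presentation genes (11) had 0 calls in either direction, and their median differences were -0.02, -0.68 and -0.75; in each of the 3 lists the 24 h and 48 h medians overlapped. The 26 tested lysosome and phagocytosis genes also had 0 calls, with a median difference of 0.47, and the nearest member was Ctsd, a lysosomal protease (0.76 ± 0.28, adjusted p = 0.244).

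The remaining named rises were spread over several roles. Adgra1, an adhesion G protein-coupled receptor, went from 0.96 and 0.80 to 3.99 and 2.88 (2.55 ± 0.43, adjusted p = 0.0122). Il4ra, the receptor chain for interleukins 4 and 13, rose from 0.48 and 0.54 to 1.81 and 2.23 (1.51 ± 0.27, adjusted p = 0.0157). Plin2, which coats lipid droplets, was at 0.93 and 1.40 at 24 h and at 2.43 and 2.37 at 48 h (1.24 ± 0.28), at the edge of the threshold with an adjusted p of 0.0498, and passed in 2 of the 12 fits that left out 1 array. Among the 87 genes of the new high, and named after their values were seen, were RANK (Tnfrsf11a), the receptor of the RANK ligand, which went from 0.38 and 0.00 to 1.95 and 2.07 (1.82 ± 0.33, adjusted p = 0.017), and osteoprotegerin (Tnfrsf11b), its decoy receptor, which went from 0.30 and 0.52 to 1.91 and 1.53 (1.31 ± 0.21, adjusted p = 0.0106). The ligand itself, Tnfsf11, did not pass (0.42 ± 0.28, adjusted p = 0.553).

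Pancreas transcripts were high in 3 of the 4 arrays, and muscle, B cell and red blood cell transcripts in 1 or 2. The medians of the 87 genes of the new high were 0.01 and 0.04 at 24 h and 1.63 and 1.61 at 48 h, and the part of these transcripts in the rises was not tested.

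**Figure D4:**
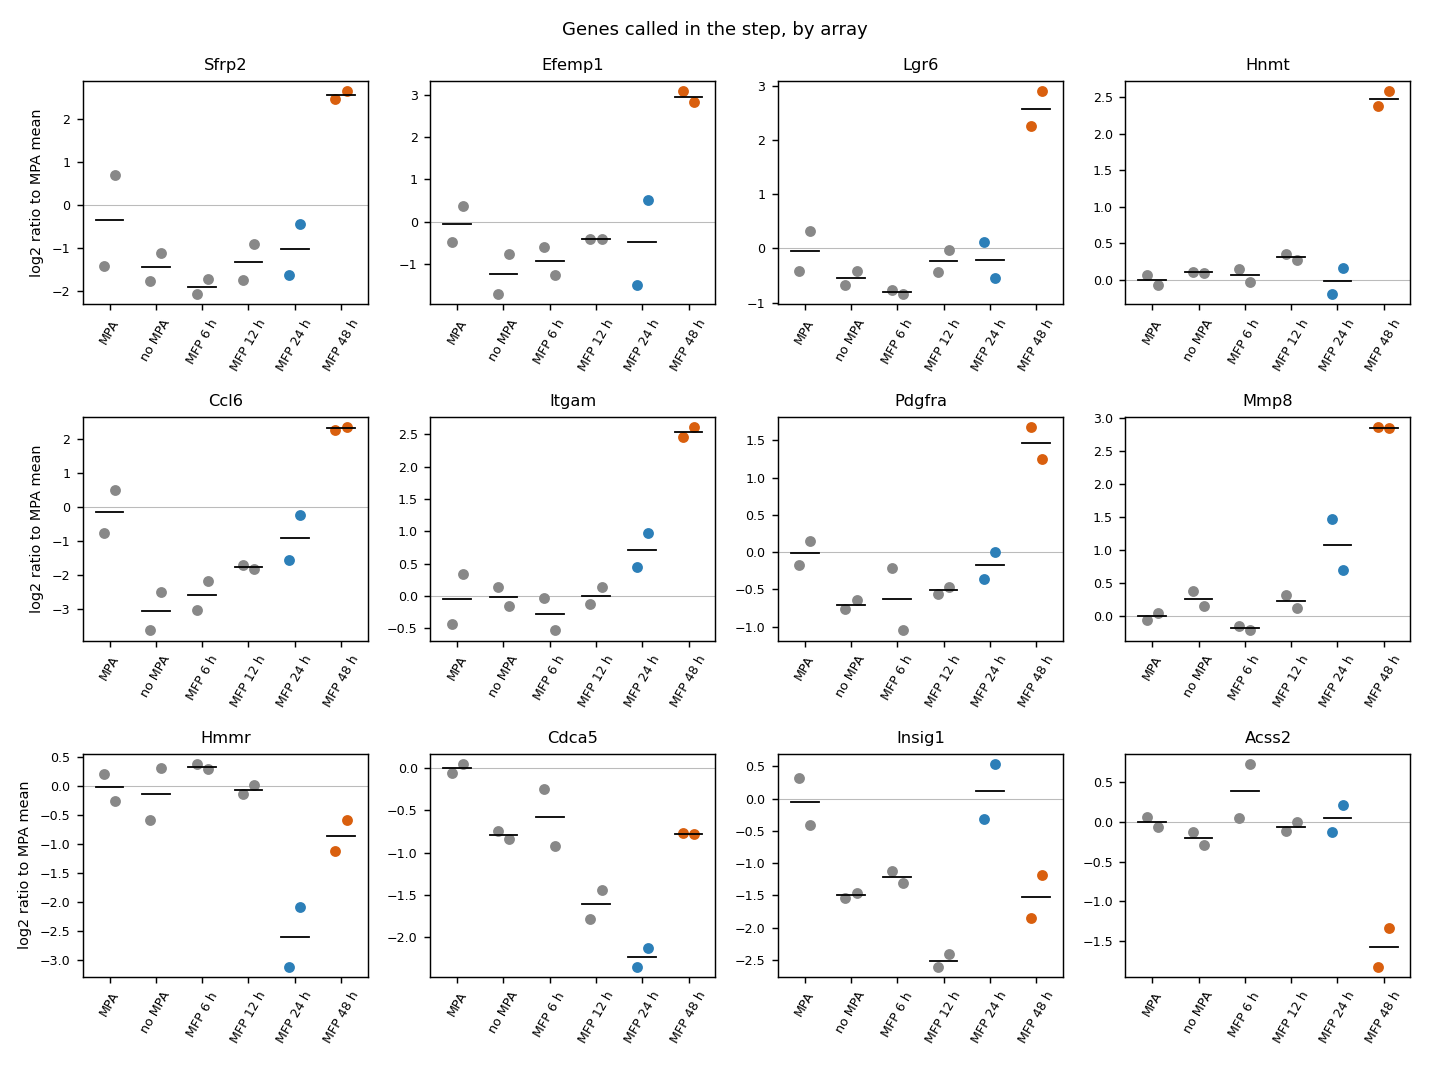
Log2 ratio to the MPA mean in each of the 12 arrays for 12 genes called in the step; points are arrays, bars group means, and the vertical scale differs between panels. In the upper 8 panels the 48 h arrays are the highest of all; Hmmr and Cdca5 are lowest at 24 h and come part of the way back at 48 h, while Insig1 and Acss2 are lower at 48 h than at 24 h.

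Of the 20 genes that rose from a low at 24 h, 7 with a role in cell division are named here, chosen after their values were seen: Hmmr (a microtubule-binding protein of the spindle), Pbk (a mitotic kinase), Cdca5 (sororin, which protects sister chromatid cohesion), Spc25 (a kinetochore subunit), Trip13 (an ATPase of the spindle checkpoint), Ncaph (a condensin subunit) and Espl1 (separase, which cuts cohesin at anaphase). The stretches before the start of 3 of them are printed because promoters of such genes are known for CCAAT boxes and for the cell cycle homology region, whose core is TTTGAA; capitals mark CCAAT or its reverse complement ATTGG, and TTTGAA or its reverse complement TTCAAA. They are the 250 bases before the start of each gene in RefSeq's GRCm38.p6, 5′ to 3′ on the gene's strand: chr11:40733438-40733687 on the minus strand for Hmmr, chr19:6084847-6085096 on the plus strand for Cdca5 and chr15:102296043-102296292 on the plus strand for Espl1.
Hmmr: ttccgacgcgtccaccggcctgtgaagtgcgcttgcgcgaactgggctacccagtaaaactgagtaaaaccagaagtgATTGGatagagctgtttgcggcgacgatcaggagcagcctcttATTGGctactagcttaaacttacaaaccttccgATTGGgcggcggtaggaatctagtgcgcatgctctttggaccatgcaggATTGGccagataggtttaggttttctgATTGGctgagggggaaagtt
Cdca5: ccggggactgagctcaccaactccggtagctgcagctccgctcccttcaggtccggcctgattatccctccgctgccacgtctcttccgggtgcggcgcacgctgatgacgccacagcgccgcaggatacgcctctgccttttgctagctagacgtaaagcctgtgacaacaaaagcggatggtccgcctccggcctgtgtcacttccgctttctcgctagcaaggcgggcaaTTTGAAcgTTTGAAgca
Espl1: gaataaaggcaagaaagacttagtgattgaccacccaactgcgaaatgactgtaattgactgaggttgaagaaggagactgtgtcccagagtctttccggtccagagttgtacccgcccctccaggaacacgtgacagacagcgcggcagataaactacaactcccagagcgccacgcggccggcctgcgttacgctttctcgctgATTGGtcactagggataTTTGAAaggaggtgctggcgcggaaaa

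The stretch of Hmmr holds 5 CCAAT matches and 0 of TTTGAA, that of Cdca5 0 and 2, and that of Espl1 1 and 1. Both strands were searched, and the motifs share no bases. Of the 20 genes 16 matched a RefSeq entry, and 8 of these (50%) held CCAAT and 2 (12.5%) TTTGAA, against 34.5% and 16.3% of the 27025 genes with such a stretch. These matches are letters in a window and say nothing of binding.

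Hmmr was at -3.12 and -2.08 at 24 h and at -1.13 and -0.59 at 48 h, where the 8 arrays outside the step lay between -0.58 and 0.39. It rose by 1.74 ± 0.38 (adjusted p = 0.0455), with the same direction in its 5 probe sets, and remained below every array outside the MFP 24 h and 48 h groups. The call was lost in 7 of the 12 fits that left out 1 array, with values from 1.23 to 2.26, and in the mean of its probe sets the difference was smaller, at 0.81. Cdca5 was at -2.35 and -2.13 at 24 h and at -0.76 and -0.78 at 48 h (1.47 ± 0.24, adjusted p = 0.0115). Pbk rose by 1.53 ± 0.24 (adjusted p = 0.0088), Spc25 by 1.39 ± 0.25 (adjusted p = 0.015) and Trip13 by 1.13 ± 0.21 (adjusted p = 0.0177). Espl1 was at -1.65 and -1.54 at 24 h and at -0.72 and -0.55 at 48 h (0.96 ± 0.20, adjusted p = 0.0389), and Ncaph rose by 1.07 ± 0.22 (adjusted p = 0.0347), a direction that 1 of its 2 probe sets had.

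Most list members for cell division did not pass. Of 31 mitosis genes 1 rose and 0 fell, with a median difference of 0.54; the list's medians were -2.26 and -1.52 at 24 h, then -1.03 and -1.36 at 48 h. Both 24 h arrays lay below all 8 arrays outside the step for 7.86% of all genes and for 30 of these 31. The 1 called, Prc1, a bundler of spindle midzone microtubules, was at -2.21 and -1.80 at 24 h and at -0.74 and -0.57 at 48 h (1.35 ± 0.24, adjusted p = 0.0145), but its other probe set gave -0.24. Of 33 DNA replication and G1/S genes 1 rose and 0 fell, with a median difference of 0.39. The 1 called, Prim1, the small primase subunit (1.20 ± 0.27, adjusted p = 0.0466), gave -0.07 on its other probe set. Mki67, the proliferation marker Ki-67, was at -2.83 and -1.53 at 24 h and at -1.40 and -2.10 at 48 h (0.43 ± 0.40, adjusted p = 0.702), so that its groups overlapped. Ccnd1 (cyclin D1) had a difference of 0.61 ± 0.24 (adjusted p = 0.268), and Myc of 0.01 ± 0.29 (adjusted p = 0.991).

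The 20 genes of the 24 h low were not all of cell division. Tgfbr1, the type I receptor of TGF-beta, was at -0.37 and -0.11 at 24 h and at 1.38 and 1.25 at 48 h (1.55 ± 0.20, adjusted p = 0.00258), so that it ended above every other array. Tnnt2, a troponin of cardiac muscle, went from -1.14 and -1.07 to 0.64 and 0.69 (1.77 ± 0.27, adjusted p = 0.00686), and Hoxa5, a homeobox gene, from -0.44 and -0.68 to 0.53 and 0.65 (1.15 ± 0.20, adjusted p = 0.0149). Outside these 20, the purinergic receptor P2rx7 was at -1.33 and -1.34 at 24 h and at 0.90 and 0.09 at 48 h. It rose by 1.83 ± 0.41 (adjusted p = 0.0498) and passed in 2 of the 12 fits that left out 1 array.

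The 42 genes that fell without a 24 h high include Acss2, Insig1 and Aldoc, each called in a list of lipid or sugar metabolism, and many genes of other roles. Their median was 0.20 and 0.24 at 24 h and -1.17 in both 48 h arrays. By the way they were chosen their 48 h arrays are low; in 30 of the 42 both lay below all 10 others, as they did for 4.88% of all genes, and nothing is read from that share. Acss2, which makes acetyl-CoA from acetate, was at -0.13 and 0.21 at 24 h and at -1.82 and -1.33 at 48 h, a difference of -1.62 ± 0.27 (adjusted p = 0.0111). The 8 arrays outside the step lay between -0.29 and 0.73. The mean of its 3 probe sets, 2 of which moved down, gave -0.61, and the call was lost without replicate 2 of 24 h or replicate 1 of 48 h (adjusted p of up to 0.0786).

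Insig1, which holds the sterol sensor of the SREBP pathway in the endoplasmic reticulum and is itself a target of that pathway, was at -0.31 and 0.54 at 24 h and at -1.86 and -1.18 at 48 h (-1.64 ± 0.34, adjusted p = 0.0365). It had been lower still at 12 h, at -2.61 and -2.42, so that its 24 h values stood near the MPA level between lower times. The call was kept in 4 of the 12 fits that left out 1 array, with values from -2.06 to -1.21. Insig1 was the 1 of 20 cholesterol synthesis and uptake genes that fell, and 0 rose. That list had a median difference of -0.55 and medians of -0.65 and -0.22 at 24 h and of -1.12 and -1.18 at 48 h. Both 48 h arrays were below both 24 h arrays for 17.8% of all genes and for 11 of the 20. Of 15 fatty acid synthesis genes 2 fell, Acss2 and Fads2, and 0 rose, with a median difference of -0.27. The liver list was high in both 24 h arrays, with medians of 2.34 and 3.14. The part of liver transcripts in the course of Insig1 and of these 2 lists was not tested.

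Aldoc, the aldolase isoform C of glycolysis, was at -0.15 and 0.66 at 24 h and at -2.37 and -0.95 at 48 h (-1.91 ± 0.42, adjusted p = 0.045), and was the 1 of 25 hypoxia and glycolysis genes called. It passed in 2 of the 12 fits that left out 1 array, and its 48 h arrays lay far apart. Others of the 42, named after their values were seen, were Gpt2, the mitochondrial alanine aminotransferase (-0.28 and -0.52 at 24 h, -2.01 and -1.91 at 48 h, -1.56 ± 0.22, adjusted p = 0.00511), the peroxisomal genes Abcd3 (-1.44 ± 0.27, adjusted p = 0.0191) and Pex11a (-1.43 ± 0.27, adjusted p = 0.0211), and Etfa, which passes electrons from fatty acid oxidation to the respiratory chain (-0.98 ± 0.21, adjusted p = 0.0389). Ckmt1, the mitochondrial creatine kinase, went from -0.09 and -0.07 to -1.59 and -1.58 (-1.5 ± 0.30, adjusted p = 0.0285). The transcription factor Foxo3 differed by -1.25 ± 0.28 (adjusted p = 0.0498), and Prkci, the atypical protein kinase C of epithelial polarity, by -0.83 ± 0.18 (adjusted p = 0.0478). The largest fall of this course was that of the transcription factor Onecut2, from 1.87 and 3.30 to 0.48 and -0.46 (-2.58 ± 0.44, adjusted p = 0.0131). Its relative Onecut1 is in the liver list. Beyond the organ lists the 42 were not sorted by known expression in hepatocytes, so genes that hepatocytes express can be among them. Of the 42, 1 had a correlation above 0.8 with the liver list over the 12 arrays. The 42 were chosen for lacking a 24 h high, which is the course of the liver list, so this count is low by selection and says little. The part of liver transcripts in these falls was not tested.

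The 154 genes outside the organ lists that fell from a 24 h high share by selection the course of the liver list, so a correlation over all 12 arrays, above 0.8 for 134 of them, says little. On the 8 arrays outside the step 37 of the 154 had a correlation above 0.8 with the liver or pancreas list. This number was 1 in each of the other courses, of 87, 20 and 42 genes. By the differences between the arrays of each group, 2, 0 and 1 genes of those courses followed an organ list, and 30 of the 154 that fell from a 24 h high. The share of all genes that meet these rules is not given here, and the courses were themselves sorted by the 24 h and 48 h values. The counts therefore describe the courses, and the part of organ transcripts in any of them was not tested. The 8 largest falls outside the organ lists all had this course, and all are genes known from hepatocytes: Slc27a2, a fatty acid transporter (-5.56 ± 0.96, adjusted p = 0.0134), Upp2, a uridine phosphorylase (-5.45 ± 0.64, adjusted p = 0.00175), the acute phase protein Saa1 (-5.37 ± 1.0, adjusted p = 0.0191), the glycosyltransferase Ugt3a2 (-5.33 ± 0.76, adjusted p = 0.00511), the carboxylesterase Ces1d (-5.11 ± 0.68, adjusted p = 0.00349), the P450 Cyp4a12a (-4.95 ± 0.48, adjusted p = 0.000714), the peroxisomal thiolase Acaa1b (-4.69 ± 0.62, adjusted p = 0.00349) and C-reactive protein, Crp (-4.54 ± 0.44, adjusted p = 0.000714). Crp was at 4.51 and 5.35 at 24 h and at 0.81 and -0.04 at 48 h, with the other 8 arrays between -0.73 and 0.46. Slc27a2 lost the call in 3 of the 12 fits that left out 1 array and Saa1 in 3, with adjusted p of up to 0.0797 and 0.123.

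Several list genes with roles in mammary tissue had the same course. Igf1, a growth factor of liver and stroma, was at 3.50 and 3.68 at 24 h and at 1.82 and 0.97 at 48 h (-2.19 ± 0.39, adjusted p = 0.0161), and stayed above the 8 arrays outside the step, which reached 0.66. Prox1, the regulator of lymphatic endothelium that hepatocytes also express, was at 1.47 and 2.47 at 24 h and at 0.10 and -0.13 at 48 h (-1.98 ± 0.32, adjusted p = 0.0104). Another endothelial marker, Lyve1, went the other way, with a difference of 2.69 that did not pass. At an unadjusted limma p below 0.05, 6 markers of that list were higher at 48 h and 2 lower. Fads2, the fatty acid desaturase, was at 2.09 and 1.91 at 24 h and at -0.74 and -0.54 at 48 h (-2.64 ± 0.26, adjusted p = 0.000714). Hsd11b1, which regenerates active glucocorticoid, was at 3.62 and 3.59 at 24 h and at 1.88 and 0.75 at 48 h (-2.29 ± 0.39, adjusted p = 0.0123), and is itself in the liver list. The 3 falls called in the list of 24 mammary involution and acute phase genes, Saa1, Orm1 and Hp, are secreted by hepatocytes, and the 2 rises were Il4ra and Mmp3. Igf1 was the 1 gene called among 29 growth factors and receptors (median difference 0.28) and among 20 oestrogen targets (-0.08), Prox1 among 19 endothelial markers (0.45), and Hsd11b1 among 18 targets shared by glucocorticoids and progestins (-0.34). The part of liver transcripts in the falls of Igf1, Prox1 and Fads2 was not tested.

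Of 10 genes of hormone response and growth that were named in any case, 0 passed in the step. Pgr, the progesterone receptor, was at 1.16 and 0.80 at 24 h and at -0.15 and 0.40 at 48 h (-0.86 ± 0.29, adjusted p = 0.202), with the 48 h arrays below the 24 h arrays in all 3 probe sets. Esr1, the oestrogen receptor, was below MPA throughout the step, at -1.35 and -1.76 at 24 h and at -1.71 and -1.78 at 48 h (-0.19 ± 0.24, adjusted p = 0.803). Wnt4 differed by 0.28 ± 0.39 (adjusted p = 0.833) and turned to -0.39 without replicate 2 of 24 h. Fkbp5, a target of the glucocorticoid and progesterone receptors, differed by -0.37 ± 0.26 (adjusted p = 0.592), and 1 of its 3 probe sets had this direction. Cdkn1a, the cell cycle inhibitor p21, had a difference of 0.44 ± 0.23 (adjusted p = 0.434), and the luminal keratin Krt8 of -0.43 ± 0.26 (adjusted p = 0.512). Of 20 luminal epithelial markers and 17 basal and smooth muscle markers 0 passed, with median differences of -0.41 and 0.20. The difference was below 0 for 18 of the 20 luminal markers, down to -1.01 for Ehf, an epithelial transcription factor, where the median over all genes was 0.04. Both 48 h arrays were below both 24 h arrays for 11 of the 20 and for 17.8% of all genes. The luminal list's medians were 0.27 and -0.08 at 24 h and -0.61 and -0.15 at 48 h, so the arrays of each time were uneven.

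Of 28 interferon-stimulated genes 0 passed, and the list's median difference was -0.41. The nearest, Ifit1, was at 1.70 and 2.11 at 24 h and at 0.95 and 0.70 at 48 h (-1.08 ± 0.27, adjusted p = 0.076). The lists for apoptosis and p53 targets (23 genes), the unfolded protein response (22), heat shock (15), immediate early genes (20), ribosome biogenesis (26) and cytosolic ribosomal proteins (17) also had 0 calls, with median differences between -0.15 and 0.12. The nearest members were the apoptosis gene Pmaip1 (1.06 ± 0.27, adjusted p = 0.0863), Herpud1 of the endoplasmic reticulum (-1.04 ± 0.30, adjusted p = 0.126), the small chaperone Hspb8 (-0.92 ± 0.24, adjusted p = 0.0879) and Jun (-0.89 ± 0.28, adjusted p = 0.166). Of 17 milk and secretory genes Plin2 alone rose and 0 fell. Adipocyte markers (13), the circadian clock (17), progestin paracrine targets (12), oxidative stress genes (15) and epidermis genes (14) had 0 calls, with median differences between -0.29 and 0.09.

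**Figure D5:**
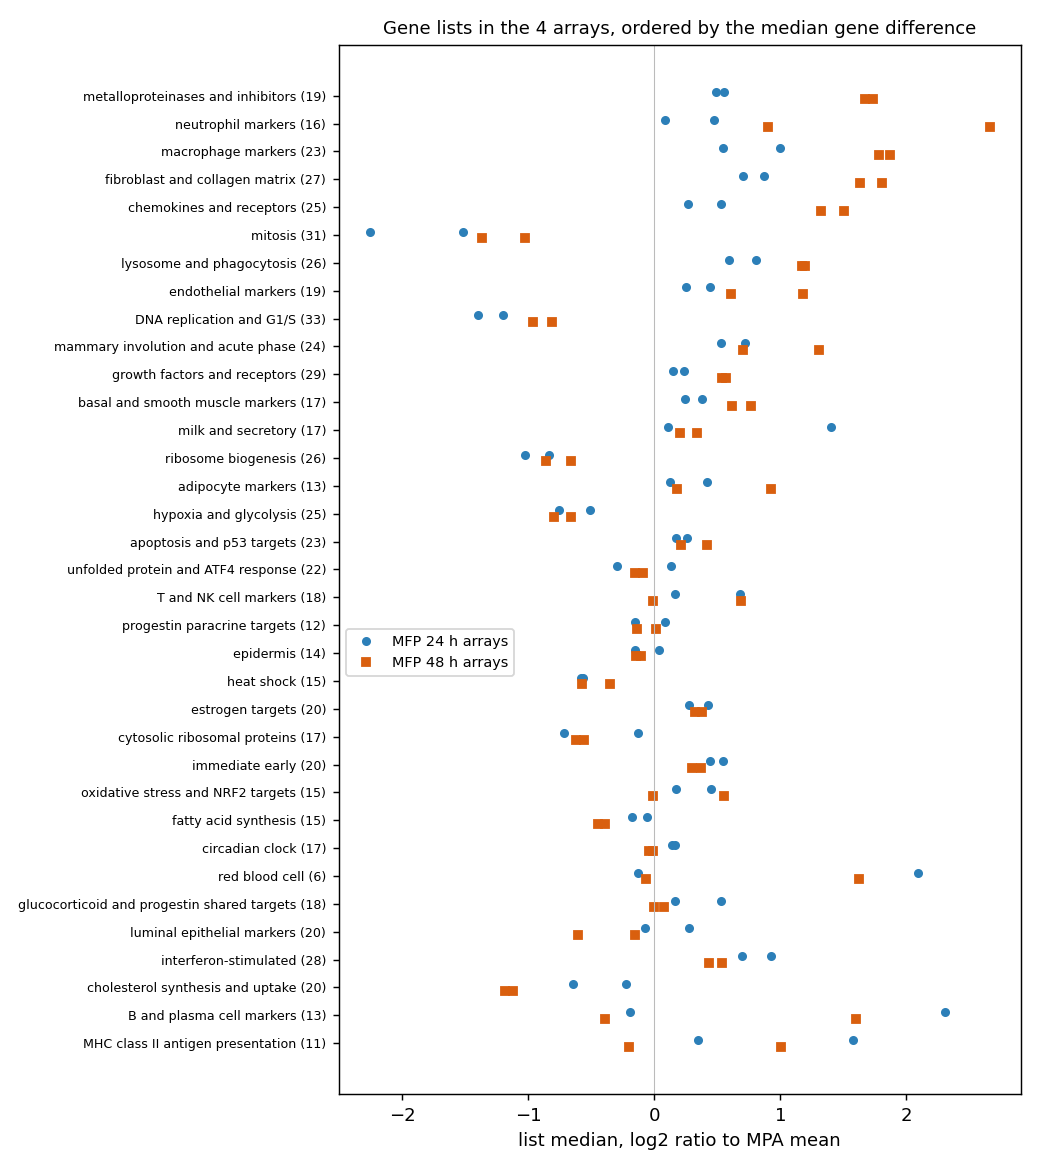
Median log2 ratio to the MPA mean of 35 gene lists in the 24 h arrays (circles) and the 48 h arrays (squares), with the number of genes tested in parentheses and the lists ordered by the median difference of their genes. Metalloproteinase, macrophage, fibroblast and chemokine lists are higher in both 48 h arrays, the mitosis list is below 0 in all 4 arrays, and the B cell, red blood cell and class II lists are each high in 1 array of either time.

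The step was also set against the one before it, from 12 h to 24 h, by testing the difference of the 2 changes in the same model. The changes share the 24 h arrays, so a gene that is high or low at 24 h moves in opposite directions in them by construction. Over all genes 394 passed (2.17%), 58 upward (0.319%) and 336 downward (1.85%), and outside the organ lists 58 upward (0.325%) and 210 downward (1.18%). Hmmr differed by -2.54 from 12 h to 24 h and by 1.74 from 24 h to 48 h, and the difference of the changes was 4.29 ± 0.66 (adjusted p = 0.0054). Of the 31 mitosis genes 8 passed upward in this test, and the list's median was 2.00. Hnmt (2.83 ± 0.35, adjusted p = 0.0013) and Lgr6 (2.77 ± 0.57, adjusted p = 0.032) also passed upward, with values of -0.33 and 0.02 for the step before. The other 6 of the 8 largest rises did not pass in this test, with adjusted p of 0.25 for Sfrp2, 0.15 for Efemp1, 0.40 for Ccl6, 0.36 for Ptx3, 0.37 for F13a1 and 0.20 for Adgra1. For Insig1, with 2.63 and then -1.64, the difference was -4.26 ± 0.59 (adjusted p = 0.0029). Ccl9, Itgam and Mmp8 had values above 0 in both steps, at 1.44, 0.71 and 0.86 in the earlier one, and for these genes the difference of steps did not pass (adjusted p of 0.83, 0.53 and 0.54). The median difference of steps was -0.19 for the fibroblast list, 0.24 for macrophage markers, 0.32 for metalloproteinases and 0.05 for chemokines. In each of these lists 0 genes passed in this test.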

How the data were processed

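RNA of formalin-fixed, paraffin-embedded tumours (RNeasy FFPE kit, 200 ng per labelling, per the labels' protocols) was hybridised to 12 Affymetrix mouse whole-genome arrays. GCRMA is the tool named, without a version, per the submitters' processing notes. The log2 values deposited for 45101 probe sets are ratios: 45099 of them have a linear MPA mean of 1 (tolerance 0.0001). Signal over background is unknown, since scanner values were not analysed here; centring is on MPA per probe set, and no array was rescaled.

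Groups were taken from the source names, which spell the 48 h group in 2 ways. The platform annotation gives 34945 probe sets a single symbol, 932 several and 9160 none here, besides 64 controls. Each of 18193 genes was represented by the probe set that varied most over the 12 arrays (largest SD), of which 9010 have more than 1; this favours probe sets with larger changes, and near-identical family members cannot be told apart. limma 3.58.1 in R 4.3.3 was fitted to the 6 groups (6 residual and 4.21 prior degrees of freedom), with Benjamini-Hochberg adjustment over all genes at 0.05. The filter on low levels of the design has no meaning for ratios; in its place, leaving out the 25% of genes with the smallest SD was tried. The arrays of a group differed from each other with an SD of 0.39 to 0.56, so none is a copy.

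Members, organ lists and the 35 gene lists were chosen with earlier results of these data known. Named genes were the 8 largest rises and falls outside the organ lists with groups that did not overlap, up to 3 called members per list and direction (or the member with the smallest p), 10 genes of hormone response and growth, 3 members per organ list and the 4 largest differences of steps in each direction; others are marked in the text. Alternatives concerned the arrays fitted, array weights, probe set choice, scaling, filter, variance prior, single arrays and genes that follow organ lists. The fit was tested on simulated data of 18193 genes: it recovered 24.2% of log2 changes of 1, 80.6% of those of 2 and 94.1% of those of 3, with 5.57% false calls. The simulated noise was independent between genes and arrays. In the real arrays organ transcripts were high together in single arrays, so these rates hold for the simulated noise only.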

Additional observations from a re-analysis of the deposited data

Results flagged for a closer look

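The change from 24 h to 48 h was set against the change from 12 h to 24 h. Given here are the 4 largest differences in each direction among genes outside the organ lists that passed this test (limma, adjusted p below 0.05). The differences upward were 4.69 ± 0.71 for Mip, a water channel, 4.29 ± 0.66 for Hmmr, 3.99 ± 0.71 for P2rx7 and 3.93 ± 0.66 for Parpbp, which acts in DNA repair. The 24 h arrays of Mip, Hmmr and Parpbp lay below all the others, and the step to 48 h itself was called for Hmmr and P2rx7 but not for Mip (1.53, adjusted p = 0.103) or Parpbp (1.39, adjusted p = 0.108). The differences downward were -12.57 ± 1.11 for Upp2, -11.69 ± 1.32 for Ugt3a2, -11.53 ± 1.66 for Slc27a2 and -11.21 ± 1.73 for Saa1, all genes of hepatocytes that were high in both 24 h arrays. Both changes use the 24 h arrays, so a gene high or low in them enters the difference 2 times with the same sign.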

How the results depend on the processing

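No paired analysis was possible because the labels carry no replicate numbers, and the numbers used here follow accession order. The numbers of genes called, called outside the organ lists, risen there and fallen there were 427, 309, 113 and 196. On the 4 arrays alone they were 181, 88, 19 and 69. Quantile normalization over 12 arrays gave 0 in each with limma, with 770 genes at an unadjusted p below 0.05; it widened the MPA arrays, whose SD of the replicate difference went from 0.506 to 0.99. Quantile normalization over the 8 MFP arrays, added after seeing the data, gave 175, 111, 31 and 80, and leaving out replicate 2 of 24 h and replicate 1 of 48 h together, also added, gave 111, 74, 23 and 51. Array weights gave 65 rises, and the probe set chosen by its SD over the 8 other arrays gave 72. Without genes following an organ list over 12 arrays, 174 calls outside the lists and 61 falls were left, and without genes high in both 24 h arrays, added later, 142 and 42. Leaving out 1 array gave 254 to 529 calls, 183 to 401 outside the organ lists, 49 to 193 rises, 123 to 270 falls and 244 to 595 genes in the difference of steps (394 with all arrays). Of 42 called genes among the 80 named, 2 reversed under any of 23 alternatives: with the other probe set Prim1 gave -0.069 and Prc1 -0.24, and there the uncalled Sdc1 gave -0.012 and Rps6 0.17. A kept sign is not a kept call: all 42 lost the call under quantile normalization over 12 arrays, and most lost it under further alternatives too. The other reversals were all of genes that did not pass: Fkbp5 (0.11 for the mean of probe sets), Myc (-0.013 with centred arrays), Sdc1 (-0.065 with quantiles over the MFP arrays), and, without both arrays named above, Wnt4 (-0.30), Gcg (0.18), Trdn (-0.64) and Myot (-0.56). Over the fits without 1 array, the range crossed 0 for Esr1 (-0.397 to 0.018), Mki67 (-0.215 to 1.08), Reg3b (-1.52 to 7.24), Reg2 (-1.66 to 5.54), Wnt4 (-0.394 to 0.946), Gcg (-4.92 to 0.016), Myc (-0.329 to 0.356), Trdn (-0.251 to 5.23), Pygm (-0.012 to 3.91) and Myot (-1.14 to 4.84). The cause of these changes was not tested, apart from the fewer arrays in the smaller fits.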
